A study of Mus musculus with 8 samples.

Results

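The 48 genes described here encode the nuclear subunits of respiratory complexes II, III and IV, cytochrome c and the ATP synthase, together with their tissue isoforms, as measured in mouse heart. They were chosen by symbol alone: Sdha to Sdhd, Cyc1, Cycs, and every gene of the platform annotation that starts with Uqcr, Atp5, or Cox4 to Cox8. They were 48 of 18193 genes with a named probe set, and each was read from its brightest probe set by mean over the 8 arrays. Complex II contributed 4 genes, complex III 9, cytochrome c 1, complex IV 17 and the ATP synthase 17.

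The hearts came from female mice that carried a conditional gene deletion driven by MCK (muscle creatine kinase), a gene of striated muscle, and from wild-type (WT) littermates. The groups were knock-out (KO) at 10 weeks, WT at 10 weeks, KO at 4 weeks and WT at 4 weeks, with 2 mice each and 1 Affymetrix mouse array per heart, 8 arrays in all. MCK acts in heart and skeletal muscle cells and not in the other cells of the heart, so a whole KO heart also holds cells in which the deletion is not expected to occur. Mice of 1 age were littermates, so age and litter cannot be told apart in a comparison of the ages. Values are log2 of the deposited intensity. A gene was called lower or higher where its Benjamini-Hochberg adjusted p, over all 18193 genes in limma, was under 0.05.

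Complex II, succinate dehydrogenase, passes electrons from succinate to ubiquinone. Complex III passes them from ubiquinol to cytochrome c, and complex IV, cytochrome c oxidase, passes them from cytochrome c to oxygen. Complexes III and IV move protons out of the matrix, and the ATP synthase lets them return through its c ring while it makes ATP. Several small subunits of complex IV exist as a form found in heart and skeletal muscle and a form found in most tissues, and adult heart holds both. The heart is among the tissues with the most mitochondria, and transcripts of these subunits are abundant in it.

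The members were bright on these arrays, and 45 of the 48 lay above the all-gene median by mean level. The mean log2 of complex II members on single arrays ran between 11.29 and 12.10, against that all-gene median of 6.07. The 3 below it were Cox6b2 and Cox7b2, isoforms known from testis, and Cox7c, for which both probe sets were dim. Cox4i2, known from lung, and Cox8c, known from testis, lay above it at means of 6.19 and 7.66. Cox7c averaged 3.75 and Cox7b2 averaged 3.34, so little can be read from either. The markers of heart muscle cells were present on every array, with a mean log2 of 12.94 to 13.60 over 12 genes, and the defining fast skeletal muscle myosins Myh1, Myh2 and Myh4 lay between 3.15 and 5.43.

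2 arrays stood apart from their group partner in transcripts of liver. Replicate 2 of 4-week KO had a summed intensity of 3935 over 4 liver genes, against 214 on replicate 1. Replicate 1 of 10-week WT had 3787, against 396 on replicate 2, and it also had 908 over 4 kidney genes, against 198. On the 4-week WT arrays the liver sums were 902 and 2607, and on the 10-week KO arrays they were 140 and 268. Counts and medians at 10 weeks are therefore also given with each WT array left out, and comparisons that use 4-week KO without its replicate 2.

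At 10 weeks, 25 of the 48 subunit genes were lower in KO hearts and 0 were higher, and 23 were not called. In all genes, 6.89% were called lower and 5.19% higher. Differences were negative in 44 of the 48, with a median of -0.53 and a range of -2.13 to 0.44, beside an all-gene median of 0.00. Among the 521 genes at least as bright as Sdhc, the dimmest complex II member, 28.2% were called lower and 8.25% higher, and the median was -0.22, so bright genes as a whole, the members included, were more often lower. In bulk hearts, fewer muscle cells and less RNA per cell cannot be told apart.

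Both KO arrays lay below both WT arrays at 10 weeks for 36 members, above for 1 and overlapped for 11. Such separation was common in all genes at this group size, with 23.5% below and 23.7% above. The 25 calls comprised 2 of 4 members in complex II, 5 of 9 in complex III, 0 of 1 for cytochrome c, 8 of 17 in complex IV and 10 of 17 in the ATP synthase. Median differences were -0.60 in complex II, -0.58 in complex III, -0.30 in complex IV and -0.60 in the ATP synthase. The complex IV members include dim Cox7c and isoforms known from other tissues. Over its 14 members above the all-gene median level, Cox4i2 and Cox8c still among them, the median difference was -0.37. The plot of every member shows how wide the spread was inside each complex, from little or no difference to the large falls of a few small subunits.

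**Figure D1:**
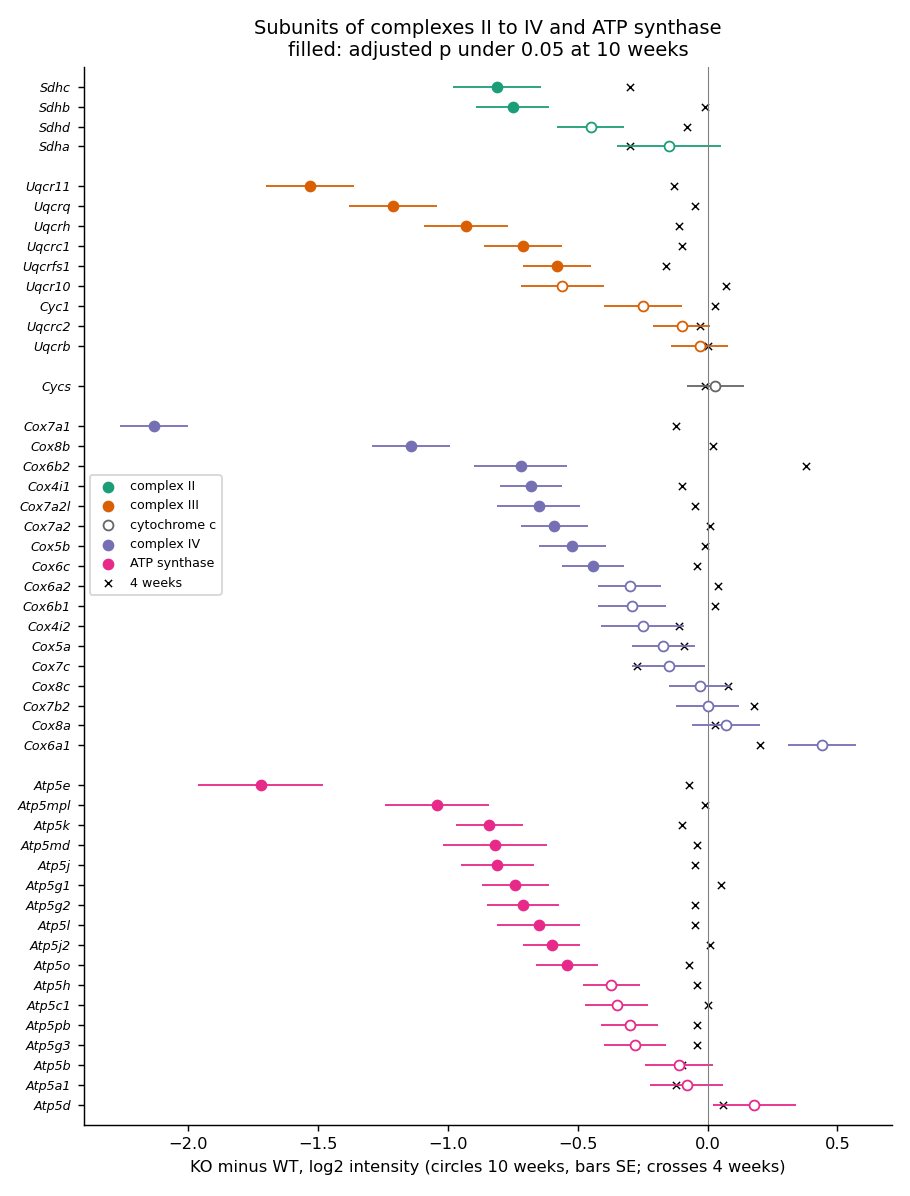
KO minus WT difference in log2 intensity for each of the 48 genes, grouped by complex, with 10-week values as circles (filled where the adjusted p was under 0.05, bars SE) and 4-week values as crosses. At 10 weeks, 44 of the circles lie left of 0, reaching -2.13 for Cox7a1, while the 4-week crosses run between -0.30 and 0.38.

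Summed over a complex, the 10-week KO arrays were the lowest of the 8. The mean log2 of the 9 complex III members was 12.15 on both 10-week KO arrays, against 12.88 and 12.73 on the WT arrays. For the 17 ATP synthase members it was 12.41 and 12.37 in KO at 10 weeks, against 13.04 and 12.90 in WT. Complex II members averaged 11.29 and 11.48 in KO at 10 weeks, against 11.91 and 11.94 in WT. The 14 complex IV members above the median level averaged 11.55 and 11.56 in KO at 10 weeks, against 12.11 and 11.96 in WT. At 4 weeks the same means were 11.91 and 11.96 in KO, against 11.95 and 11.94 in WT. In none of these 4 sets did the 10-week KO arrays overlap any other array.

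**Figure D2:**
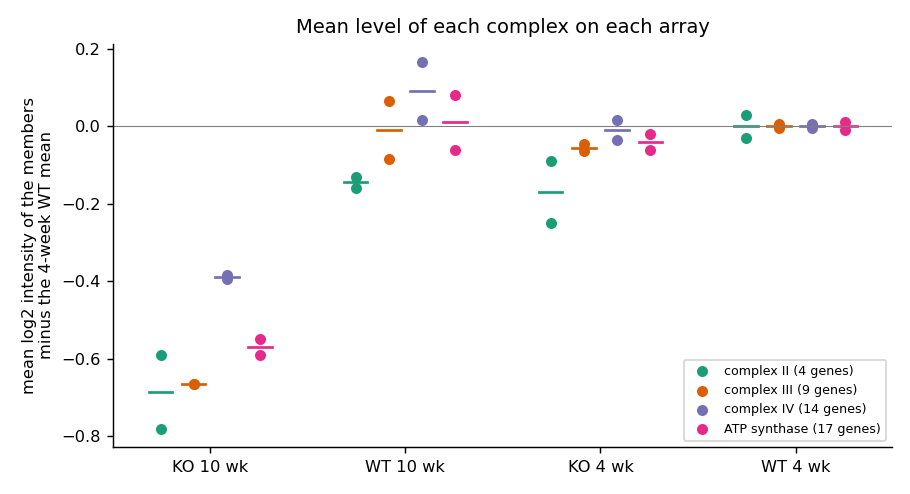
Mean log2 intensity of the members of each complex on each array (points, with the group mean as a bar), drawn relative to the mean of the 4-week WT arrays; complex IV is drawn for its 14 members above the median level. The 10-week KO points lie below every other point of their complex, and the 10-week WT pair is more spread than the 4-week WT pair in complexes III and IV and in the ATP synthase.

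Complex II showed falls in 1 catalytic and 1 anchoring subunit. Sdhb, the iron-sulfur subunit, read 12.72 and 12.55 in KO at 10 weeks, against 13.56 and 13.21 in WT, a difference of -0.75 ± 0.14 (SE, n = 2 each, limma adjusted p = 0.00925). Sdhc, a membrane anchor that holds a heme together with Sdhd, read 9.53 and 9.95 in KO at 10 weeks, against 10.49 and 10.63 in WT, a difference of -0.81 ± 0.17 (limma adjusted p = 0.0132). Neither gene overlapped between the genotypes at 10 weeks. At 4 weeks Sdhb read 13.20 and 13.29 in KO, against 13.27 and 13.25 in WT. Sdhc read 10.59 and 10.35 in KO at 4 weeks, against 10.65 and 10.89 in WT.

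Sdhd, the second anchor, did not pass. It read 11.26 and 11.34 in KO at 10 weeks, against 11.85 and 11.65 in WT, a difference of -0.45 with a limma adjusted p of 0.0586, and 11.89 and 11.67 in KO at 4 weeks, against 11.86 and 11.86 in WT. Sdha, which carries the flavin where succinate is oxidised, showed the smallest difference of the complex on the brightest probe sets. It read 11.63 and 12.07 in KO at 10 weeks, against 11.74 and 12.27 in WT, and the groups overlapped (-0.15 ± 0.20). At 4 weeks it read 12.23 and 11.98 in KO, against 12.38 and 12.42 in WT. The 2 mice of each 10-week group differed more in Sdha than the group means did. A further Sdha probe set at a mean of 11.79 gave -0.54, and a further Sdhc probe set at 9.89 gave -0.48. Neither was called, so the contrast of Sdha with Sdhc depended on the probe set read.

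In complex III the small accessory subunits ranged most widely, with 3 of 5 called lower and a median of -0.93. Uqcr11, the smallest of them, read 11.32 and 11.11 in KO at 10 weeks, against 12.99 and 12.50 in WT. Its level in KO was 0.347 times that in WT, a log2 difference of -1.53 ± 0.17 (limma adjusted p = 0.000643). At 4 weeks it read 12.47 and 12.54 in KO, against 12.67 and 12.59 in WT. Uqcrq, a subunit that contacts cytochrome b, read 11.70 and 11.46 in KO at 10 weeks, against 13.01 and 12.55 in WT, and 12.51 and 12.63 in KO at 4 weeks, against 12.66 and 12.58 in WT. Its 10-week difference was -1.21 ± 0.17 (limma adjusted p = 0.00188), but its dim further probe sets did not show it, and the mean over all 4 gave -0.22. Uqcrh, the acidic hinge protein beside cytochrome c1, read 12.09 and 11.77 in KO at 10 weeks, against 13.06 and 12.67 in WT (-0.93 ± 0.16), and 12.71 and 12.64 in KO at 4 weeks, against 12.79 and 12.78 in WT.

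On the brightest probe sets, the electron carriers and core proteins of complex III had smaller differences than Uqcr11, Uqcrq and Uqcrh. They did not all differ less than the small subunit Uqcr10, which was at -0.56 and not called. The Rieske iron-sulfur protein gene Uqcrfs1 was lower at 10 weeks with a log2 difference of -0.58, and the core protein gene Uqcrc1 with -0.71, while the other core gene, Uqcrc2, differed by -0.10 and was not called. Cyc1, the gene of cytochrome c1, was not called. It read 12.26 and 12.46 in KO at 10 weeks, against 12.44 and 12.79 in WT (-0.25 ± 0.15), and 12.83 and 12.93 in KO at 4 weeks, against 12.84 and 12.86 in WT. Uqcrb, known as the ubiquinone-binding protein, had the smallest difference of the complex on its brightest probe set. It read 14.08 and 14.09 in KO at 10 weeks, against 14.14 and 14.10 in WT, and 14.07 and 14.07 in KO at 4 weeks, against 14.04 and 14.09 in WT.

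Cycs, the gene of somatic cytochrome c, also showed no difference on its brightest probe set, with overlapping groups. It read 13.35 and 13.45 in KO at 10 weeks, against 13.35 and 13.39 in WT (0.03 ± 0.11), and 13.41 and 13.32 in KO at 4 weeks, against 13.38 and 13.37 in WT. Both Cycs and Uqcrb read lower on further probe sets.

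Complex IV held the largest fall of all 48 members and also the largest positive difference. Cox7a1, the muscle form of subunit 7a, read 10.63 and 10.82 in KO at 10 weeks, against 12.98 and 12.73 in WT. Its level in KO was 0.228 times that in WT, a log2 difference of -2.13 ± 0.13 (SE, n = 2 each, limma adjusted p = 3.4e-05). At 4 weeks Cox7a1 read 12.53 and 12.61 in KO, against 12.67 and 12.70 in WT, so only the 10-week KO arrays stood low. Cox7a2, its ubiquitous partner, read 13.01 and 12.84 in KO at 10 weeks, against 13.60 and 13.43 in WT (-0.59 ± 0.13, limma adjusted p = 0.0142), and 13.34 and 13.40 in KO at 4 weeks, against 13.35 and 13.36 in WT.

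Cox8b, the muscle form of subunit 8, read 12.03 and 12.20 in KO at 10 weeks, against 13.33 and 13.18 in WT, a fold of 0.455 (log2 -1.14 ± 0.15, limma adjusted p = 0.00176). The 4-week arrays gave Cox8b 12.95 and 13.35 in KO, against 13.15 and 13.10 in WT. Cox8a, the ubiquitous form, overlapped between the genotypes at 10 weeks, with 10.98 and 10.93 in KO, against 11.03 and 10.73 in WT (0.07 ± 0.13). At 4 weeks it read 10.85 and 10.88 in KO, against 10.82 and 10.85 in WT.

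Cox6a2, the muscle form of subunit 6a, was not called. It read 13.11 and 13.29 in KO at 10 weeks, against 13.48 and 13.53 in WT (-0.30 ± 0.12, limma adjusted p = 0.171), and 13.48 and 13.62 in KO at 4 weeks, against 13.53 and 13.49 in WT. Cox6a1, the ubiquitous form, was the 1 member whose 10-week KO arrays both lay above the WT arrays. It read 12.32 and 12.18 in KO at 10 weeks, against 11.74 and 11.88 in WT, and 12.01 and 12.17 in KO at 4 weeks, against 11.89 and 11.90 in WT. Its 10-week difference of 0.44 ± 0.13 just missed the threshold (limma adjusted p = 0.0507) and passed it under 4 of 17 alternative settings, with adjusted p between 0.00845 and 0.237 over these.

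Within each array, the muscle form minus its ubiquitous partner had its lowest values in the 10-week KO hearts for all 3 pairs, with no overlap with another group. The Cox7a1 minus Cox7a2 log2 difference was -2.38 and -2.02 in KO at 10 weeks, against -0.62 and -0.70 in WT, and -0.81 and -0.79 in KO at 4 weeks, against -0.69 and -0.66 in WT. The Cox8b minus Cox8a difference was 1.05 and 1.28 in KO at 10 weeks, against 2.30 and 2.45 in WT, and 2.09 and 2.47 in KO at 4 weeks, against 2.33 and 2.25 in WT. The Cox6a2 minus Cox6a1 difference was 0.79 and 1.12 in KO at 10 weeks, against 1.74 and 1.65 in WT, and 1.47 and 1.45 in KO at 4 weeks, against 1.65 and 1.59 in WT. KO minus WT at 10 weeks was thus -1.54 for Cox7a, -1.21 for Cox8 and -0.74 for Cox6a, and at 4 weeks -0.13, -0.01 and -0.16.

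An exact permutation test of genotype within age, two-sided over 36 arrangements, cannot go below p = 0.0556. On the mean over both ages the exact test gave that smallest p for Cox7a and for Cox6a (0.194 after adjustment over 7 pairs) and p = 0.167 for Cox8 (0.311 adjusted). No pair could have passed 0.05 in this design, so the test gives no verdict on the pairs, and the values on each array are a description. Over the 3 muscle forms the median 10-week difference was -1.14, with 2 called lower, and over their ubiquitous partners it was 0.07, with 1 called lower. The brightness of one gene's probe set cannot be set against another's, so the share of each form in the heart is not given by these values.

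**Figure D3:**
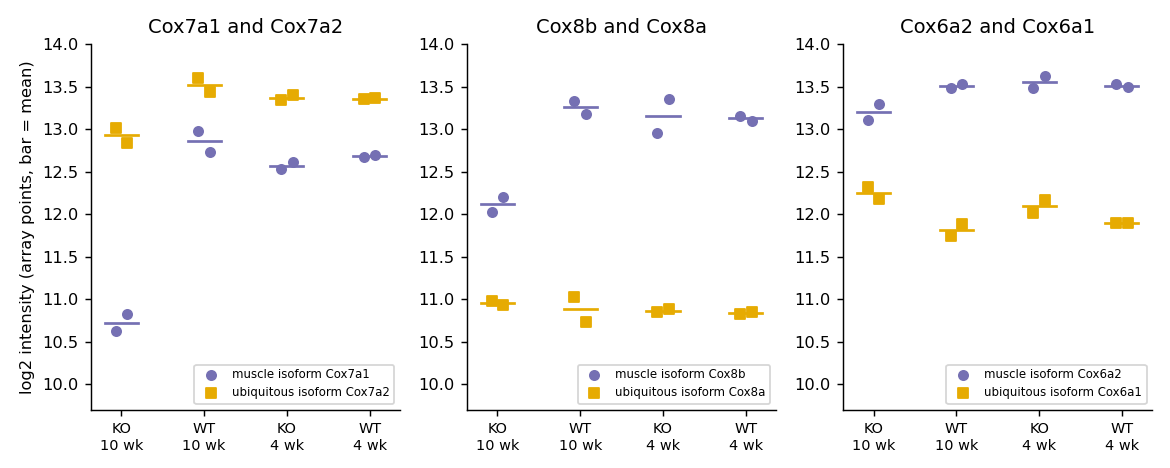
Log2 intensity of the muscle form (circles) and the ubiquitous form (squares) of subunits 7a, 8 and 6a on each array, with group means as bars; heights of different genes cannot be compared with each other, only the change of each across groups. Cox7a1 at 10.63 and 10.82 and Cox8b at 12.03 and 12.20 stand low in the 10-week KO group alone, while Cox8a overlaps and Cox6a1 is higher there than in 10-week WT.

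Promoter windows of the Cox7a and Cox8 pairs are shown because Cox7a1 and Cox8b had the largest falls in complex IV. The windows run from 250 bases before to 50 after the gene start, 300 in all, in RefSeq's GRCm38.p6 annotation. They are printed 5′ to 3′ on the gene's strand, with capitals for an E-box (CANNTG), an ETS core (CCGGAAG, or CTTCCGG on the other strand) or a TATA box (TATAAA).
Cox7a1 promoter window (chr7:30183921-30184220, plus strand): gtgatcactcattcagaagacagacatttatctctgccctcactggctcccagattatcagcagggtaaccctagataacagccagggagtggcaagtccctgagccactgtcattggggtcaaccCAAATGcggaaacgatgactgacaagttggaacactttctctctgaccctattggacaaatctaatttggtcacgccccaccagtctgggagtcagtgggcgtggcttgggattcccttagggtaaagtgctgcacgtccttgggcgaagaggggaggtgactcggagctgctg
Cox7a2 promoter window (chr9:79759804-79760103, minus strand): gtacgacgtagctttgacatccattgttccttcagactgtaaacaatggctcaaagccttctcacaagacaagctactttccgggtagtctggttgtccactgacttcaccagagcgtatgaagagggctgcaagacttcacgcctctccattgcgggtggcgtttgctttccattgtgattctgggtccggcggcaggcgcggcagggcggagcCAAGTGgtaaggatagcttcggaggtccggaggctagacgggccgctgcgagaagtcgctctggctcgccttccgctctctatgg
Cox8b promoter window (chr7:140900397-140900696, minus strand): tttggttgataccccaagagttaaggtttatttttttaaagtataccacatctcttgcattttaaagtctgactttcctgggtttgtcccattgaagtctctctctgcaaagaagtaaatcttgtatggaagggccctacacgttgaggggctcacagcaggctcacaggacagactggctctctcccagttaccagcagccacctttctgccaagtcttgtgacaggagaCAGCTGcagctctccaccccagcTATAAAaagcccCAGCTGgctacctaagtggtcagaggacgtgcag
Cox8a promoter window (chr19:7217567-7217866, minus strand): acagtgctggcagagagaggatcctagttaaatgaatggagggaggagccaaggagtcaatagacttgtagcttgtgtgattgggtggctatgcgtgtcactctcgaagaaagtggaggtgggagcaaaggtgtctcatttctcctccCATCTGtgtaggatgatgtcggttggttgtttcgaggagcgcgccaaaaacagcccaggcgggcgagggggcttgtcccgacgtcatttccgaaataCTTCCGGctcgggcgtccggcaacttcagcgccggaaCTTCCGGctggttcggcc

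The Cox8b window held a TATA box and 2 E-boxes, and the Cox8a window held 2 ETS cores and 1 E-box. The windows of Cox7a1 and Cox7a2 held 1 E-box each and no ETS core. The Cox7a1 window held 7 CpG dinucleotides and that of Cox8b held 2, while the windows of the ubiquitous forms held 20 for Cox7a2 and 19 for Cox8a. The median was 19 over the members and 7 over all windows.

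A window was listed for 36 of the 48 members, and motifs were searched on both strands. The NRF1 core (GCGC and GCGC with 2 bases between) was in 25% of the members' windows and 6.43% of all 27025 windows, and the ETS core in 33.3% and 9.12%. The ERR motif (AAGGTCA) was in 13.9% of the members' windows and 4.66% of all windows. For the E-box the shares were 69.4% and 72.1%, for the GC box (GGGCGG) 41.7% and 35.9%, and for the TATA box 11.1% and 14.2%. The MEF2 core (CTA and TAG with 4 bases between) was in 2.78% and 3.7%, and the CArG-like string (CC and GG with 6 bases between) in 80.6% and 73%. The NRF1 core and the GC box can overlap in GC-rich windows. The members' windows had a median GC content of 56.5%, against 52.7% over all windows, and the motif shares were not adjusted for this. All windows were not limited to genes of the array. These matches describe letters in a window and not binding.

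The other complex IV members had smaller falls than Cox7a1 and Cox8b. Cox4i1, the ubiquitous form of subunit 4, read 12.95 and 12.93 in KO at 10 weeks, against 13.70 and 13.55 in WT (-0.68 ± 0.12, limma adjusted p = 0.00534), and 13.49 and 13.51 in KO at 4 weeks, against 13.60 and 13.59 in WT. Its lung form Cox4i2 was dim and overlapped, with 5.99 and 6.22 in KO at 10 weeks, against 6.54 and 6.17 in WT, and 6.17 and 6.02 in KO at 4 weeks, against 6.17 and 6.23 in WT. Of the 6 subunits with no muscle form, 3 were lower at 10 weeks, with a median of -0.37: Cox4i1, Cox5b at -0.52 and Cox6c at -0.44. Cox4i1 was called under all 17 alternative settings, Cox5b under 8 of 17 and Cox6c under 5 of 17. The call of Cox6c was narrow (limma adjusted p = 0.0469). With every probe set tested singly, its brightest one was not called (limma adjusted p = 0.0513). Cox6b1, which faces the intermembrane space, was not called. It read 13.34 and 13.21 in KO at 10 weeks, against 13.64 and 13.48 in WT (-0.29 ± 0.13), and 13.50 and 13.65 in KO at 4 weeks, against 13.56 and 13.53 in WT. Cox7a2l, a relative of subunit 7a found in supercomplexes of complexes III and IV, was lower at 10 weeks, at -0.65.

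Cox6b2, the testis form of subunit 6b, was called at a low level. It read 5.14 and 5.17 in KO at 10 weeks, against 6.09 and 5.67 in WT (-0.72 ± 0.18, limma adjusted p = 0.0306). At 4 weeks it ran the other way, with 5.48 and 5.93 in KO, against 5.35 and 5.30 in WT. Cox7b2, also a testis form, had the smallest difference of the complex. Its readings were 3.41 and 3.23 in KO at 10 weeks, against 3.24 and 3.40 in WT, and 3.45 and 3.45 in KO at 4 weeks, against 3.29 and 3.24 in WT. Within an array, KO minus WT at 10 weeks of the restricted minus the ubiquitous form was 0.43 for subunit 4 and -0.44 for subunit 6b, with exact permutation p of 0.222 and 0.889 over both ages (0.311 and 0.889 adjusted).

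In the ATP synthase the membrane part and the catalytic head differed in their counts. All 5 genes of small membrane subunits were lower at 10 weeks, with a median of -0.82, as were 2 of 3 c ring genes (median -0.71) and 2 of 4 peripheral stalk genes (median -0.46). In the F1 head 1 of 5 was lower and the median was -0.11. The difference between these classes was not tested. Of the 5 small membrane genes, Atp5l was called under 9 of 17 alternative settings and Atp5md under 8 of 17. In the 10-week WT pair, replicate 1 was above replicate 2 by 0.43 for Atp5l and by 0.64 for Atp5md. The exception in the head was Atp5e, the epsilon subunit of the central stalk. Atp5e read 10.98 and 10.62 in KO at 10 weeks, against 12.90 and 12.15 in WT, and 12.04 and 12.40 in KO at 4 weeks, against 12.34 and 12.23 in WT. Its level at 10 weeks in KO was 0.303 times that in WT (log2 -1.72 ± 0.24, limma adjusted p = 0.00188).

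The other F1 genes were not called. Atp5a1, the alpha subunit, read 12.76 and 12.97 in KO at 10 weeks, against 12.86 and 13.02 in WT (-0.08 ± 0.14), and 13.11 and 12.85 in KO at 4 weeks, against 13.09 and 13.11 in WT. Its groups overlapped at 10 weeks, as did those of Atp5b, the beta subunit with the catalytic sites (-0.11), and Atp5d, the delta subunit (0.18). Atp5c1, the gamma subunit that turns inside the head, had both 10-week KO arrays below WT and a difference of -0.35 that was not called.

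Among the small membrane subunits, the proteolipid Atp5mpl read 11.29 and 10.71 in KO at 10 weeks, against 12.24 and 11.84 in WT (-1.04 ± 0.20, limma adjusted p = 0.00976), and 11.80 and 11.98 in KO at 4 weeks, against 11.89 and 11.90 in WT. Atp5k, subunit e at the dimer interface, read 12.28 and 12.29 in KO at 10 weeks, against 13.28 and 12.98 in WT (-0.84 ± 0.13, limma adjusted p = 0.00332), and 12.95 and 12.99 in KO at 4 weeks, against 13.06 and 13.07 in WT. Neither overlapped between genotypes at 10 weeks. Atp5md was lower at -0.82, Atp5l, subunit g, at -0.65 and Atp5j2, subunit f, at -0.60. In the peripheral stalk, Atp5j, coupling factor 6, was lower at -0.81 and Atp5o, the oligomycin sensitivity protein, at -0.54.

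Subunit c is encoded by 3 genes that yield the same mature protein. Atp5g1 read 12.74 and 12.85 in KO at 10 weeks, against 13.67 and 13.41 in WT (-0.74 ± 0.13, limma adjusted p = 0.00562), and 13.50 and 13.55 in KO at 4 weeks, against 13.50 and 13.45 in WT. Atp5g2 read 11.67 and 11.77 in KO at 10 weeks, against 12.59 and 12.26 in WT (-0.71 ± 0.14, limma adjusted p = 0.0123), and 12.17 and 12.37 in KO at 4 weeks, against 12.35 and 12.29 in WT. Atp5g3 was not called, with 13.04 and 12.93 in KO at 10 weeks, against 13.20 and 13.33 in WT (-0.28 ± 0.12), and 13.35 and 13.27 in KO at 4 weeks, against 13.31 and 13.40 in WT. Within arrays, KO minus WT at 10 weeks was -0.46 for Atp5g1 minus Atp5g3 and -0.42 for Atp5g2 minus Atp5g3, with exact permutation p of 0.389 and 0.222 over both ages (0.454 and 0.311 adjusted), from a test that could not have gone below 0.0556 and settles no difference between the 3 genes.

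At 4 weeks no member differed between the genotypes in the limma fit, with 0 called and 0 at an unadjusted p under 0.05. In all genes 0% were called lower and 0.0275% higher at that age. The 4-week median was -0.04 and the range -0.30 to 0.38. Both KO arrays lay below both WT arrays at 4 weeks for 17 members and above for 4, where all genes gave 17.5% below and 19.4% above. The difference between the ages of the KO minus WT difference was called for 5 members, all more negative at 10 weeks, where all genes gave 1.2% more negative and 0.879% more positive. These were Cox7a1 at -2.02 (limma adjusted p = 0.00154), Atp5e at -1.65, Uqcr11 at -1.40, Uqcrq at -1.16 and Cox8b at -1.16, with adjusted p between 0.0231 and 0.0439 for the other 4. Cox7a1 passed under all 16 alternative settings that could be run for it. Atp5e passed under 8 of 15, Uqcr11 and Cox8b under 10 of 16 each and Uqcrq under 6 of 16. The count of 5 was 19 without replicate 2 of 10-week WT, 5 without its replicate 1, 2 without replicate 1 of 4-week KO, and 1 without replicate 2 of 4-week KO or without either array of 10-week KO or 4-week WT. The 4-week count was 0 and the median -0.03 without replicate 2 of 4-week KO.

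Within KO, 18 members were lower at 10 than at 4 weeks and 0 were higher, where all genes gave 7.07% and 3.42%. The largest were Cox7a1 at -1.84 and Atp5e at -1.42. The count was 3 without replicate 2 of 4-week KO, 8 without its replicate 1, and 7 and 11 without replicates 1 and 2 of 10-week KO. Within WT, limma called 0 members between the ages, with 3 at an unadjusted p under 0.05 and a median of 0.04, where all genes gave 0.066% lower and 0.0495% higher. Without replicate 2 of 10-week WT, 5 were called, 2 lower and 3 higher. The interaction and both age comparisons use the same arrays as the 10-week comparison, so they are not separate evidence for it.

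The count at 10 weeks depended on single arrays. It was 18 without replicate 1 of 10-week WT, which had the higher liver and kidney sums of its pair, and 27 lower with 1 higher, Cox6a1, without replicate 2. The 7 calls lost without replicate 1 were Atp5l, Atp5md, Cox5b, Cox6b2, Cox6c, Cox7a2 and Cox7a2l. Leaving out either 10-week KO array gave 14, and leaving out either 4-week KO array gave 21. The median difference was -0.42 against replicate 2 alone, -0.55 against replicate 1 alone and -0.47 against both 4-week WT arrays, so the sign of the median was the same against each. Where an array of a compared group is left out, that group has 1 array, which is assumed to vary like the other groups. With that assumption, 11 of the 25 called genes kept the call without any single array. Atp5g1, Atp5k, Cox4i1, Cox7a1, Cox8b, Uqcr11 and Uqcrh kept it under all 17 settings tried, and Atp5e under the 16 that could be run for it.

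The 10-week WT arrays also differed from each other in these genes. Replicate 1 of 10-week WT was above replicate 2 in 32 of 48 members, with a median of 0.11 and a range of -0.53 to 0.74, the highest for Atp5e. The 4-week WT pair differed by a median absolute value of 0.03, against 0.17 for the 10-week WT pair. Over the 43 members at or above log2 8, the difference between the WT pair correlated with the change from 4 to 10 weeks in KO at Pearson's r = -0.47 and Spearman's rho = -0.45. No array enters both measures, but all members share each array's RNA and scaling, and over the 3231 genes at that level r was -0.17 and rho -0.13. The correlation is across genes, which are not independent replicates.

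**Figure D4:**
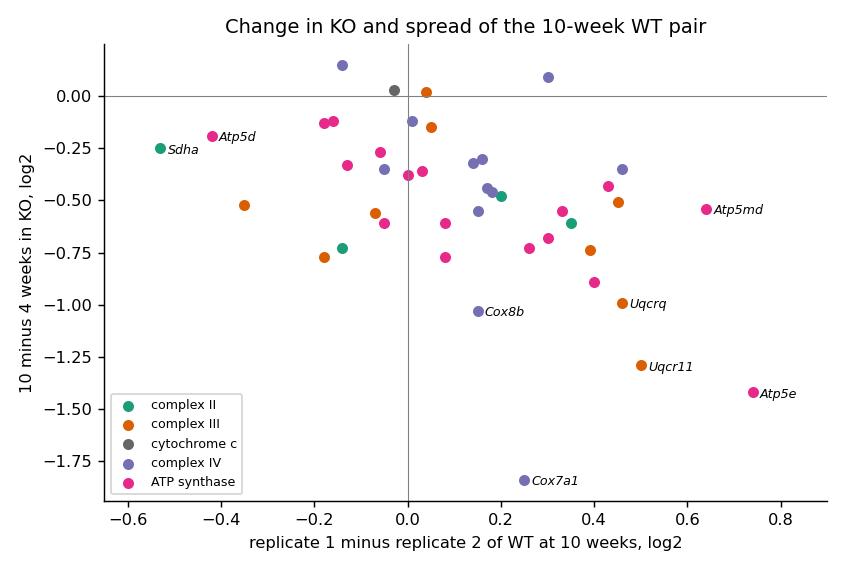
For the 43 members at or above log2 8, the difference between the 2 WT arrays at 10 weeks (horizontal, replicate 1 minus replicate 2) against the change in KO from 4 to 10 weeks (vertical), both in log2 intensity. Uqcrq, Uqcr11 and Atp5e lie low and to the right, while Cox7a1, lowest at -1.84, differed by 0.25 between the WT arrays.

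Probe sets of the same gene did not all give the same size of difference. The 48 members had 96 probe sets, of which 18 members had 1. In 24 members, 31 further probe sets reached log2 8, and 26 of these 31 were more negative at 10 weeks than the brightest one. Uqcrb had -0.03 on its brightest probe set at a mean of 14.09, and -0.82 on the next at 11.92. Cycs had 0.03 at a mean of 13.38, but -0.40 at 13.04 and -0.95 at 11.95. Atp5k had -0.84 at 12.86 and -1.89 at 12.07. The brightest of these levels are near the top of the arrays' range, and whether signal strength changed the differences was not tested.

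With every probe set tested singly, 6 members had a further probe set called lower while the brightest was not: Atp5h, Atp5pb, Cox6c, Cycs, Uqcr10 and Uqcrb. Of 12 called members with further probe sets, 8 had a further one called lower. Sdhc was not called on its further probe set. A further probe set had the opposite sign in 2 of the 12, Atp5j2 (0.22 at a mean of 7.68) and Uqcrq (0.14 at 5.19). Taking for each of the 24 genes the next brightest probe set at or above log2 8 gave 28 members lower and a median of -0.67, a choice made after seeing these values. Cox6a1 kept its positive sign on its further probe set, at 0.40, and Cox8a at 0.16. Over all 96 probe sets, 85 were negative, 42 were called lower and 0 higher. Among probe sets at or above log2 8, whether Sdhc, Atp5h, Atp5pb, Cox6c, Cycs, Uqcr10 and Uqcrb were called thus depended on the probe set read.

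**Figure D5:**
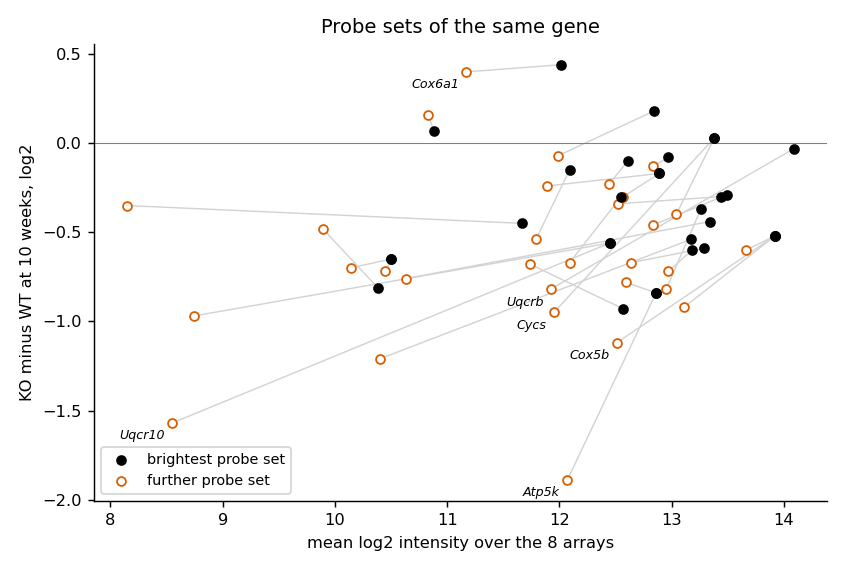
KO minus WT difference at 10 weeks against mean log2 intensity for the brightest probe set (filled) and further probe sets at or above log2 8 (open) of 24 genes, with lines joining probe sets of 1 gene. 26 of the 31 open circles lie below the filled circle of their gene.

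Of 32 measured assembly factors of complexes II to IV and the ATP synthase, 15 were lower in KO at 10 weeks, 0 higher and 17 not called, and 26 of the 32 were negative, with a median of -0.51 and a range of -1.85 to 0.32, where all genes gave 6.89% lower and 5.19% higher. Sdhaf4, which assists flavin-bearing Sdha, was lower at -1.85, Pet100, an assembly factor of complex IV, at -1.84, and Cox20, a chaperone of the mitochondrially encoded Cox2 protein, at -1.31. Sdhaf4 read 8.88 and 8.84 in KO at 10 weeks, against 11.39 and 10.03 in WT, and Pet100 read 7.81 and 7.34, against 10.01 and 8.82, so both were also far apart within the WT pair. Of 5 other subunits and partners, 3 were lower: Higd1a at -1.54 and Higd2a at -0.90, both linked to complex IV and its supercomplexes, and Ndufa4, which binds complex IV, at -1.17. Atpif1, the inhibitor of the ATP synthase, had a positive difference of 0.49 that was not called. The mitochondrially encoded subunits were not analysed here.

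Of 23 transcription factors known to act on respiratory genes, 3 were lower at 10 weeks and 1 higher, with a median of 0.02. These counts are near the shares over all genes, 6.89% lower and 5.19% higher, and say nothing particular of the list. Tfb1m, a mitochondrial ribosomal RNA methyltransferase, was lower at -1.28, Ppara, a regulator of fatty acid oxidation, at -0.75, and Yy1 at -0.71. Hif1a, the oxygen-regulated factor, was higher at 2.03. Nrf1 at 0.02, the ETS factor Gabpa at -0.31 and Esrra at -0.13, which bind some of the searched motifs, were not called at 10 weeks. Ppargc1a, their coactivator, was at 0.59, also not called. Other factors that bind these or the remaining searched motifs are not given here.

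Marker lists of heart muscle and of other cells differed in their 10-week counts, which are to be read against 6.89% lower and 5.19% higher over all genes. At 10 weeks 4 of 12 heart muscle markers were lower, Ryr2 at -1.27, Ckm at -0.99, Pln at -0.66 and Tnni3 at -0.52, and the summed intensity of the 12 was 124983 and 139173 in KO, against 148643 and 165846 in WT. Differences were negative in 9 of these 12, with a median of -0.37 and a highest value of 0.41. Fibroblast markers were higher for 6 of 7, with a summed intensity of 20124 and 20679 in KO, against 6043 and 8162 in WT. At 4 weeks the fibroblast sums were 12602 and 13801 in KO, against 10883 and 12839 in WT. From 4 to 10 weeks all 7 fibroblast markers were negative in WT, with a median of -0.85. In KO 4 of the 7 were negative over that time, with a median of -0.06. Macrophage markers were higher for 4 of 8 at 10 weeks, with sums of 7503 and 6562 in KO, against 3288 and 3361 in WT. Of 10 skeletal muscle markers 2 were higher, Acta1 at 2.45 and Tnnt3 at 0.69, while 6 of the 10 were negative and the median was -0.10. The skeletal muscle sums, 7596 and 11806 in KO, against 1937 and 2297 in WT, were mostly Acta1, at 12.81 and 13.48 log2 in KO, against 10.51 and 10.88 in WT. Of 6 endothelial markers 2 were higher, with sums of 2018 and 2083 in KO, against 1558 and 2080 in WT. The other 4 of these 6 were negative, and the median was -0.06. Of 7 atrial markers 1 was higher and 1 lower, and of 4 white fat markers 0 were called. Atrial sums differed widely between arrays. They were 13486 and 28522 in KO at 4 weeks, against 6598 and 9596 in WT. At 10 weeks they were 24016 and 23713 in KO, against 16304 and 24564 in WT. The atrial median was 1.27 for KO against WT at 4 weeks, with 1 of 7 negative and 0 called. From 4 to 10 weeks in WT it was 1.18, with 2 negative and 0 called. Among 6 brown fat markers Dio2 was higher at 1.73, with sums of 1121 and 1048 in KO, against 786 and 1162 in WT. Differences were negative in 4 of the 6 brown fat markers, and their median was -0.03. Brown fat Ucp1 overlapped, with a mean log2 of 6.65 ± 0.50 in KO at 10 weeks, against 7.28 ± 1.01 in WT (SD, n = 2 each). The part of these marker differences in the subunit differences was not tested. The 3′ minus 5′ difference of the Gapdh control was -0.100 and -0.113 in KO at 10 weeks, against -0.206 and -0.139 in WT, and that of the actin control was 0.464 and 0.348, against 0.379 and 0.274.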

How the data were processed

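Total RNA from 8 mouse hearts was hybridised to 1 array each. The deposited values were probe set intensities on a linear scale, which the authors made, per the submitters' processing notes, using GCOS 1.3 together with RMA; the RMA version is not given in the sources used here. RMA is meant to equalise the arrays' distributions, so a shift shared by all genes would largely not appear. The deposited distributions were not fully equal. Array medians ran from 34.3 to 37.4, and a second quantile normalization moved the 10-week median of the members from -0.53 to -0.35. The log2 was taken with no pseudocount. Of 45101 probe sets, 64 controls were left out, and 34945 named 1 gene in the platform annotation, giving 18193 genes. limma 3.58.1 in R 4.3.3 fitted group means over all 8 arrays (lmFit and eBayes, two-sided, 4 residual and 9.33 total degrees of freedom). The median SE of a 10-week difference was 0.145, and 2 arrays per group limit the precision. Each SE rests on the spread of all 4 groups together, and in the members the 10-week pairs were more spread than the 4-week pairs. The steps were tested on simulated data.

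The members and gene lists were chosen with earlier results of these data known. Values on each array are given for the 3 largest called differences of each complex, all isoform pairs, genes called for the difference between ages, complex II, Cyc1, Cycs and the smallest difference of each complex. Other lists have up to 3 called genes of largest difference. The positive difference of Atpif1, the factors Nrf1, Gabpa and Esrra, Ppargc1a, the marker genes and the other members were added after their values were seen. Alternatives covered probe set choice, level filter, normalization, variance moderation, array weights, the groups in the fit, a replicate block and each array left out. The replicate numbers gave 1 correlation of deviations per age (0.302 at 4 weeks, 0.23 at 10 weeks), and no label pairs them. A check of the deleted gene is not reported here. Cox7b was not named in the annotation and not used here.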

Additional observations from a re-analysis of the deposited data

Results flagged for a closer look

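The KO minus WT difference differed between 10 and 4 weeks, by the test of that difference itself (limma, adjusted p under 0.05), for 5 members: Cox7a1 at -2.02, Atp5e at -1.65, Uqcr11 at -1.40, Cox8b at -1.16 and Uqcrq at -1.16. For another 2 members both KO arrays lay below both WT arrays at 10 weeks and above them at 4 weeks, without passing that test. In all genes 23.5% lay below at 10 weeks and 19.4% above at 4 weeks, and the share with both was not counted. Atp5g1 had a difference between ages of -0.80 (limma adjusted p = 0.064), from -0.74 at 10 weeks and 0.05 ± 0.13 (SE) at 4 weeks. Its lower KO array and higher WT array at 4 weeks both read 13.50, so that order is close to a tie. Cox6b2 had a difference between ages of -1.10 (limma adjusted p = 0.0683), from -0.72 at 10 weeks and 0.38 at 4 weeks, at levels of 5.14 to 6.09, near the lower end of the arrays' range.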

How the results depend on the processing

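The 10-week count of 25 lower members was 9 with only the 2 groups compared in the fit. There, 2 degrees of freedom are left for the spread, and the 4-week pairs, which lay closer together, do not enter it. The median absolute difference over the members was 0.03 in the 4-week WT pair and 0.09 in the 4-week KO pair. In each 10-week pair it was 0.17. The SE given with 10-week differences pools all 4 groups, so it can understate the spread at 10 weeks. With each array left out there were 14 to 28 calls, of which 14 to 27 were lower. Under the other planned settings it stayed within 19 and 31 calls, and 18 to 30 of these were lower. Refitting with a second quantile normalization gave a median of -0.35. The 4-week count was 0 under every setting tried. The count for the difference between ages, 5, was 2 with arrays centred on their medians, 8 with the replicate block and 1 to 19 with an array left out, the 19 being without replicate 2 of 10-week WT. A fit of only the groups compared could not be run for it. The count between ages in KO, 18, was 3 to 27 with an array left out, and in WT, 0, it was 0 to 5, the 5 being 2 lower and 3 higher without replicate 2 of 10-week WT.

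By complex, the lower members numbered 0 in complex II, 3 in complex III, 3 in complex IV and 3 in the ATP synthase with only the groups compared. They numbered 3 in complex III and 5 in complex IV after a second quantile normalization, and 5 in complex IV with array weights. With an array left out they numbered 1 to 3, 3 to 6, 3 to 8 and 5 to 10 in complexes II, III, IV and the ATP synthase. The 10-week muscle minus ubiquitous difference ran from -0.91 to -0.58 for Cox6a, -1.72 to -1.36 for Cox7a and -1.32 to -1.09 for Cox8 with an array left out. The replicate block, which no label supports as a pairing, gave 25 calls at 10 weeks, 0 at 4 weeks and 25 between ages in KO.

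No called difference changed sign, and the sign changes were all in members not called in the main fit. With a second quantile normalization Atp5a1 was at 0.10, Atp5b at 0.02, Sdha at 0.09, Uqcrb at 0.00 and Uqcrc2 at 0.09. With an array left out, values ran from -0.19 to 0.03 for Atp5a1, -0.03 to 0.39 for Atp5d, -0.09 to 0.09 for Cox7b2, -0.08 to 0.23 for Cox8a, -0.08 to 0.03 for Cox8c, -0.02 to 0.07 for Cycs and -0.41 to 0.11 for Sdha. Without replicate 2 of 10-week WT, Atp5a1 was at 0.00 and Cox7b2 at 0.08, and without replicate 1 of 10-week KO, Sdha was at 0.07. The mean of all its probe sets put Cycs at -0.43, where it was called lower (limma adjusted p = 0.0199). The causes of these changes were not tested, apart from the fewer arrays in some fits. With 2 arrays per group and a median SE of 0.145, small differences could not be told from 0, and dim members such as Cox7c and Cox7b2 carry little information.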
